A study of Triticum aestivum with 12 samples.

Results

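Starch branching enzymes IIa and IIb (SBEIIa and SBEIIb) are encoded in bread wheat by 2 triads, each with 1 copy on the A, B and D genome. The 6 genes were taken by identifier from the 120744 features of the deposited count table, not by a cut on their levels, though earlier results of these data were known. All 6 passed the filter on low counts that left 65080 features for testing. RNA was sequenced from developing grains of 2 field-grown winter wheat cultivars, TAM112 and TAM111, at 14 and 5 days after flowering (DAF, which the sample labels write as DAP). The 4 groups were TAM112 at 14 DAF, TAM111 at 14 DAF, TAM112 at 5 DAF and TAM111 at 5 DAF, with 3 libraries each and 12 in all. The labels name no transgene or treatment for either cultivar. Each library was made from several grains of 1 inflorescence, and in every group the 3 best samples by quality were sequenced. The comparisons ask how expression in the grain differs between the cultivars at each stage, and between early and mid grain filling within each cultivar.

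Starch is a mixture of nearly linear amylose and branched amylopectin. Starch branching enzymes cut a linear glucan chain and rejoin the piece as a branch, and the class II enzymes mainly transfer short chains, so they set much of the fine structure of amylopectin. In cereals SBEIIb is expressed mainly in the endosperm and SBEIIa also in other tissues, and in wheat endosperm SBEIIa has a large share of the branching activity, which is why its loss is used to raise amylose in wheat grain.

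Both triads lie on the group 2 chromosomes. In the coordinates of the IWGSC RefSeq assembly v1.0, which the table uses, the SBEIIa copies are TraesCS2A02G293400 on the plus strand at 2A:504334128-504344701, TraesCS2B02G309500 on the minus strand at 2B:442514284-442525323 and TraesCS2D02G290800 on the minus strand at 2D:372924177-372935106. The SBEIIb copies are all on the plus strand, with TraesCS2A02G310300 at 2A:533893908-533915882, TraesCS2B02G327300 at 2B:468648740-468670922 and TraesCS2D02G308600 at 2D:395602930-395623439. Every one of the 6 gene models has 22 separate exon blocks and an exonic length between 3055 and 3291 bases, so the models of the 2 triads differ in their introns. The SBEIIb genes span 20510 to 22183 bases, of which 13.8 to 15.5% is exonic, with a longest intron of 5398 to 6097 bases. The SBEIIa genes span 10574 to 11040 bases, of which 29.3 to 30.0% is exonic, and their longest introns have 873 to 1018 bases. On each chromosome the SBEIIa and SBEIIb copies are apart by many genes, with 29.5 Mb and 172 features between them on 2A, 26.1 Mb and 187 features on 2B, and 22.7 Mb and 186 features on 2D.

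The libraries held 31916077 to 40464882 counts, and the 6 genes together took 0.0217 to 0.0848% of them. Levels are given as CPM, the counts scaled to a common library total with trimmed mean of M values (TMM) factors, which ran between 0.767 and 1.19, and 1 count corresponded to 0.0231 to 0.0362 CPM. Where genes are compared with each other, TPM, which also divides by exonic length, is used instead. A gene was called a differentially expressed gene (DEG) when the absolute log2 fold change was over 1 and the adjusted p was under 0.01 in the edgeR quasi-likelihood F test with Benjamini-Hochberg adjustment over all 65080 features. All p-values set differences between groups against the spread between these libraries, estimated in 1 fit over the 4 groups. The RNA came from whole grains, so fewer cells of a type and less RNA per cell cannot be told apart. Markers of the grain tissues were not checked here.

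SBEIIa was expressed in every library, and its 3 copies followed each other across libraries. The A copy TraesCS2A02G293400 had 55.1, 58.3 and 131.3 CPM in replicates 1, 2 and 3 of TAM112 at 14 DAF, against 166.7, 227.0 and 122.5 CPM in TAM111 at 14 DAF. At 5 DAF it had 190.5, 177.5 and 204.3 CPM in TAM112 and 134.9, 86.9 and 168.6 CPM in TAM111. In TAM112 the 5 DAF libraries were all above the 14 DAF libraries and within a narrow range, whereas at 14 DAF replicate 3 stood above replicates 1 and 2 and reached into the range of TAM111. The B copy TraesCS2B02G309500 had 64.9, 63.0 and 130.0 CPM in TAM112 and 155.2, 220.8 and 120.9 CPM in TAM111 at 14 DAF. At 5 DAF the B copy had 157.8, 151.1 and 160.5 CPM in TAM112 and 112.4, 74.9 and 142.9 CPM in TAM111. Replicate 3 was again the highest of TAM112 at 14 DAF, and replicate 2 was the lowest of TAM111 at 5 DAF. The D copy TraesCS2D02G290800 had 49.5, 53.4 and 113.7 CPM in TAM112 and 138.4, 181.9 and 98.4 CPM in TAM111 at 14 DAF. At 5 DAF it had 148.4, 142.3 and 153.7 CPM in TAM112 and 106.4, 59.1 and 121.3 CPM in TAM111. For all 3 SBEIIa copies the ranges of the cultivars did not overlap at 5 DAF but overlapped at 14 DAF. The ranges of the stages did not overlap in TAM112 but overlapped in TAM111. Of all features, 25.7% had ranges that did not overlap between the cultivars at 5 DAF, and 55.2% between the stages in TAM112.

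SBEIIb spanned a far wider range of levels, and its replicates were farthest apart at 5 DAF. The A copy TraesCS2A02G310300 had 11.7, 12.04 and 70.4 CPM in replicates 1, 2 and 3 of TAM112 at 14 DAF, against 156.1, 220.0 and 116.3 CPM in TAM111 at 14 DAF. At 5 DAF it had 27.6, 29.4 and 1.02 CPM in TAM112 and 11.1, 2.73 and 0.0282 CPM in TAM111, where the last value was a single count (1 count) in that library. For the A copy the 3 TAM111 libraries at 14 DAF were thus above all other libraries, and replicate 3 was the lowest at 5 DAF in both cultivars. The B copy TraesCS2B02G327300 had 11.0, 10.1 and 60.2 CPM in TAM112 and 113.4, 150.9 and 81.0 CPM in TAM111 at 14 DAF. At 5 DAF the B copy had 23.7, 21.5 and 1.73 CPM in TAM112 and 12.6, 3.47 and 0.536 CPM in TAM111. Replicate 3 of TAM112 was again the highest of its group at 14 DAF and the lowest at 5 DAF. The D copy TraesCS2D02G308600 had 7.30, 6.89 and 41.1 CPM in TAM112 and 72.1, 106.7 and 53.6 CPM in TAM111 at 14 DAF. At 5 DAF it had 23.8, 23.6 and 2.03 CPM in TAM112 and 8.77, 3.61 and 0.733 CPM in TAM111. For all 3 SBEIIb copies the CPM ranges of the cultivars did not overlap at 14 DAF but overlapped at 5 DAF. The ranges of the stages did not overlap in TAM111 but overlapped in TAM112, so in CPM each case was the reverse of SBEIIa. Such ranges were common, since 55.9% of all features did not overlap between the cultivars at 14 DAF and 56.1% between the stages in TAM111. In TPM the ranges of the cultivars at 14 DAF overlapped for the B and D copies.

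**Figure D1:**
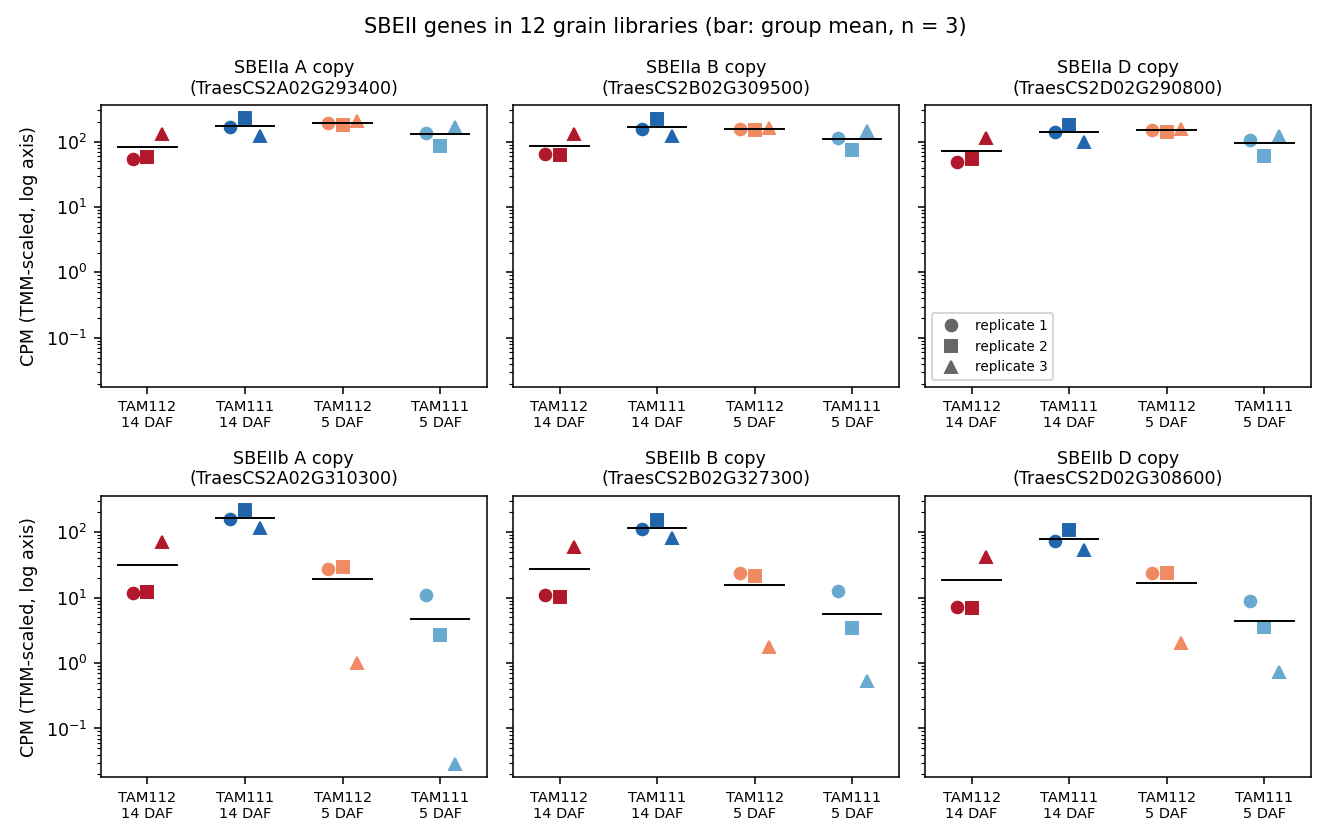
CPM of the 6 SBEII genes on a log axis in each of the 12 libraries, with the SBEIIa copies in the upper row and the SBEIIb copies in the lower row. Symbols are replicates and bars are group means (n = 3). The SBEIIa copies stay within 49.5 to 227.0 CPM, whereas the SBEIIb copies run between 0.0282 and 220.0 CPM with replicate 3 lowest at 5 DAF in both cultivars.

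The spread between replicates differed accordingly. The summed CPM of the SBEIIb triad differed 5.92-fold between the highest and the lowest library of TAM112 at 14 DAF, 1.90-fold in TAM111 at 14 DAF, 15.7-fold in TAM112 at 5 DAF and 25.1-fold in TAM111 at 5 DAF. For the SBEIIa triad these ratios were 2.21, 1.84, 1.1 and 1.96 in the same groups. The 3 SBEIIb copies ranked the 4 groups in 1 order by mean CPM, namely TAM111 at 14 DAF, TAM112 at 14 DAF, TAM112 at 5 DAF and TAM111 at 5 DAF. Only the first of these groups was clear of its neighbour in CPM, and in TPM it was so for the A copy alone. The A copy of SBEIIb averaged 31.4 ± 33.8 CPM in TAM112 and 164.2 ± 52.3 CPM in TAM111 at 14 DAF, and 19.3 ± 15.9 CPM in TAM112 and 4.63 ± 5.79 CPM in TAM111 at 5 DAF (SD, n = 3). The A and D copies of SBEIIa were highest on average in TAM112 at 5 DAF with TAM111 at 14 DAF next, and the B copy had these groups the other way round. TAM111 at 5 DAF and then TAM112 at 14 DAF came last for all 3 copies, and neighbours in the order overlapped except TAM112 and TAM111 at 5 DAF for the B copy. The summed SBEIIa triad averaged 239.7 ± 117.2 CPM in TAM112 and 477.3 ± 144.7 CPM in TAM111 at 14 DAF, and 495.4 ± 23.9 CPM in TAM112 and 335.8 ± 107.1 CPM in TAM111 at 5 DAF (SD, n = 3).

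In TAM111, SBEIIb was higher at 14 DAF than at 5 DAF in every library, whereas SBEIIa was not called. The B copy TraesCS2B02G327300 rose with a log2 fold change of 4.38 ± 1.15 (SE) and an edgeR adjusted p of 0.00877, and the D copy TraesCS2D02G308600 rose with a log2 fold change of 4.15 ± 1.05 and an adjusted p of 0.00714. The A copy TraesCS2A02G310300, with the single count in replicate 3 at 5 DAF, had the largest log2 fold change of the triad (5.15 ± 1.43) and just missed the threshold (adjusted p = 0.0115). Thus 2 of the 6 genes were DEGs for stage in TAM111, beside 24.0% of all tested features (13.4% higher and 10.6% lower at 14 DAF). The ranges did not overlap for 3 of 3 SBEIIb copies and for 0 of 3 SBEIIa copies, beside 56.1% of all features (29.9% higher and 26.3% lower at 14 DAF). The SBEIIa copies had log2 fold changes of 0.40 to 0.59 with edgeR adjusted p-values of 0.153 to 0.37. DESeq2 called the 3 SBEIIb copies, beside 27.7% of all features, whereas with glmTreat, which tests against the fold threshold, 0 of the 6 were called (adjusted p = 0.0271 for the B and 0.0235 for the D copy). The count of 2 changed with 1 library, being 0 without any single 14 DAF library of TAM111, without replicate 2 or 3 of TAM111 at 5 DAF or without replicate 1 of TAM112 at 5 DAF, 1 without replicate 1 of TAM112 at 14 DAF or replicate 2 of TAM112 at 5 DAF, and 3 without replicate 1 of TAM111 at 5 DAF or replicate 3 of TAM112 at either stage. The direction of the 3 SBEIIb copies held in each of these fits, with log2 fold changes of 3.64 to 6.88, and the count was 3 without replicate 3 of both cultivars at 5 DAF, a choice made after the data were seen.

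In TAM112, SBEIIa was lower at 14 DAF than at 5 DAF in every library, SBEIIb had overlapping levels, and no gene was called. The SBEIIa copies had log2 fold changes of -1.23 ± 0.36 (A), -0.86 ± 0.32 (B) and -1.04 ± 0.35 (D) for 14 DAF over 5 DAF, with edgeR adjusted p-values of 0.0155, 0.0472 and 0.0315. Their ranges did not overlap in 3 of 3 cases, beside 55.2% of all features (28.8% higher and 26.3% lower at 14 DAF). The SBEIIb copies had log2 fold changes of 0.70 ± 1.20 (A), 0.79 ± 1.01 (B) and 0.16 ± 0.92 (D) with adjusted p-values of 0.554 to 0.906, and their ranges overlapped in each case. Of the 6 genes, 0 were DEGs by the edgeR test, beside 21.0% of all features (11.8% higher and 9.27% lower at 14 DAF), 3 had an unadjusted p under 0.05 (all SBEIIa), beside 51.2% of all features, and DESeq2 called 1, the SBEIIa A copy, beside 25.1%. Replicate 3 at 14 DAF moved this comparison most. Without it the 3 SBEIIa copies were DEGs, with log2 fold changes of -1.78, -1.32 and -1.56 and adjusted p-values of 0.00125, 0.00512 and 0.00303. The log2 fold changes of the SBEIIb copies then had the other sign (-0.73, -0.59 and -1.24). With other libraries left out, the SBEIIa log2 fold changes were as weak as -1.01, -0.68 and -0.83. Their edgeR adjusted p-values were then as high as 0.0672, 0.165 and 0.118.

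Between the cultivars at 14 DAF, all 6 genes were lower on average in TAM112 than in TAM111, and none was called. The SBEIIb copies had log2 fold changes of -2.39 ± 1.25 (A), -2.09 ± 1.04 (B) and -2.07 ± 0.96 (D) with edgeR adjusted p-values of 0.155, 0.135 and 0.109. Their ranges in TMM-scaled CPM nevertheless did not overlap in 3 of 3 cases, beside 55.9% of all features (27.1% higher and 28.8% lower in TAM112). The SBEIIa copies had smaller log2 fold changes of -1.08 ± 0.35, -0.95 ± 0.32 and -0.95 ± 0.35 with adjusted p-values of 0.0332, 0.0387 and 0.0519, and their ranges overlapped through replicate 3 of TAM112. Of the 6 genes, 0 were DEGs by the edgeR test, beside 14.5% of all features (7.02% higher and 7.45% lower in TAM112), 3 had an unadjusted p under 0.05 (all SBEIIa), beside 46.3% of all features, and DESeq2 called 1, the SBEIIa A copy, beside 19.1%. Without replicate 3 of TAM112 the 3 SBEIIa copies were DEGs, with log2 fold changes of -1.61, -1.38 and -1.45 and adjusted p-values of 0.00294, 0.00541 and 0.0058. The SBEIIb copies then had log2 fold changes of -3.79, -3.45 and -3.46 with adjusted p-values of 0.0655, 0.0392 and 0.0245. Leaving out replicate 2 of TAM111 instead weakened the SBEIIa difference, to log2 fold changes of -0.82, -0.68 and -0.71 (edgeR adjusted p = 0.139, 0.168 and 0.195). Leaving out replicate 1 or 2 of TAM112 also weakened it (edgeR adjusted p = 0.123 to 0.175). The scale mattered here, since the summed SBEIIa triad averaged 111.9 ± 49.4 TPM in TAM112 and 135.2 ± 33.4 TPM in TAM111 (SD, n = 3), a smaller gap than in TMM-scaled CPM. For SBEIIb the ranges in TPM did not overlap for the A copy but overlapped for the B and D copies. Replicate 3 of TAM112 had 28.6 TPM (B) and 18.8 TPM (D), against 25.3 and 16.1 TPM in replicate 3 of TAM111. With library sizes alone, which moved the median log2 fold change of all features to 0.45 where TMM gave -0.01, the SBEIIa copies had log2 fold changes of -0.60, -0.46 and -0.47 and the SBEIIb copies of -1.92, -1.62 and -1.60.

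At 5 DAF the fold changes had the opposite sign, and none was called. All 6 log2 fold changes of TAM112 over TAM111 were above 0, at 0.55 ± 0.35, 0.51 ± 0.32 and 0.63 ± 0.35 for the A, B and D copies of SBEIIa and 2.06 ± 1.26, 1.50 ± 1.04 and 1.92 ± 0.97 for those of SBEIIb, with edgeR adjusted p-values of 0.23 to 0.38. The ranges did not overlap for 3 of 3 SBEIIa copies and for 0 of 3 SBEIIb copies, beside 25.7% of all features (13.2% higher and 12.4% lower in TAM112). Of the 6 genes, 0 were DEGs, beside 3.39% of all features (1.45% higher and 1.93% lower in TAM112), 0 had an unadjusted p under 0.05, beside 26.8%, and DESeq2 called 0, beside 5.77%. In the same-numbered pairs of libraries, which were correlated at this stage, the 3 SBEIIb copies had a higher CPM in TAM112 in 3 of 3 pairs. The same held for the 3 SBEIIa copies, where it follows from the ranges that did not overlap. Of all features, 27.3% were higher in TAM112 in 3 of 3 pairs. Copies of 1 triad followed each other, so they are not separate observations, and the pairing rests on the values alone. A miss of the threshold does not show that the cultivars were alike at 5 DAF.

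The interaction of cultivar and stage, taken as the log2 fold change of 14 DAF over 5 DAF in TAM112 minus that in TAM111, was below 0 for all 6 genes. It was -1.63 ± 0.50, -1.45 ± 0.46 and -1.58 ± 0.49 for the SBEIIa copies and -4.45 ± 1.78, -3.59 ± 1.47 and -3.99 ± 1.36 for the SBEIIb copies, with edgeR adjusted p-values of 0.0788 to 0.167. Of the 6 genes, 0 passed, beside 0.309% of all features (0.167% above and 0.141% below 0), 6 had an unadjusted p under 0.05, as had 23.3% of all features, and DESeq2 called 0, beside 4.92%. The difference between cultivars in the stage response was therefore not past the threshold for any SBEII gene, although the stage response itself was called for 2 genes in TAM111 and for 0 in TAM112. The 5 comparisons share libraries and are not independent of each other.

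**Figure D2:**
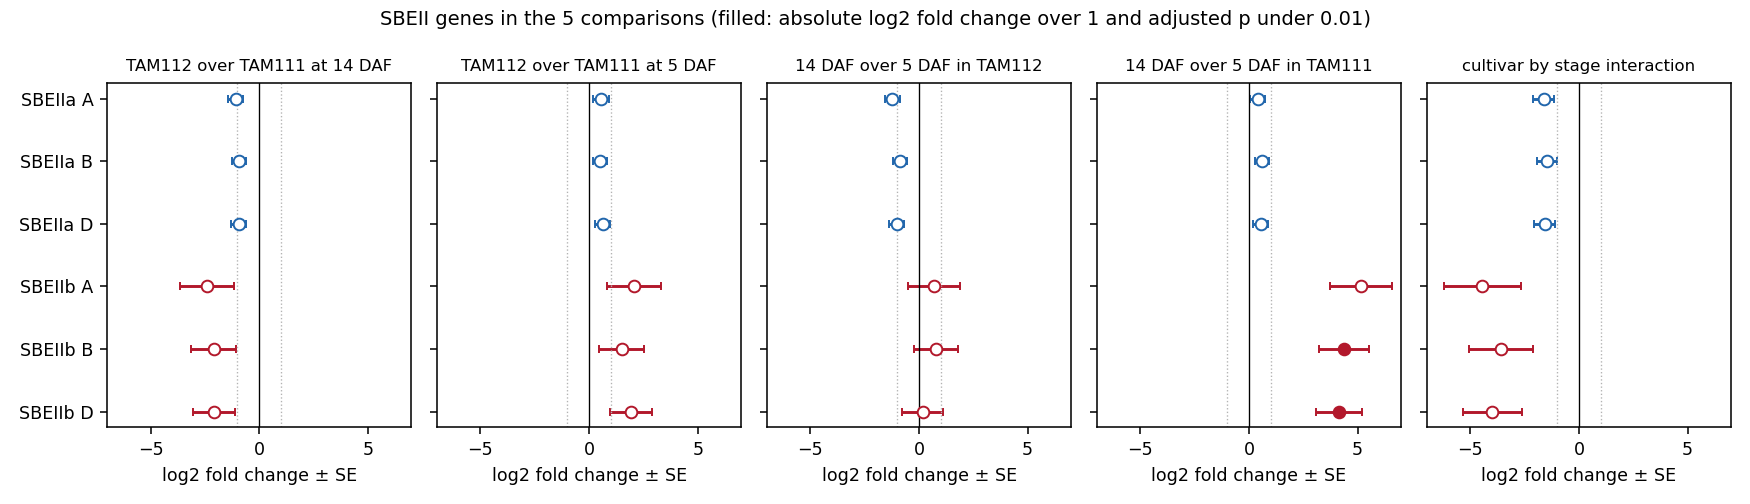
Log2 fold change ± SE of the 6 genes in the 5 comparisons, with the A, B and D copies of SBEIIa in blue and of SBEIIb in red. Dotted lines mark a log2 fold change of 1 in either direction and filled circles mark DEGs, which are the B and D copies of SBEIIb for 14 DAF over 5 DAF in TAM111 (4.38 and 4.15).

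The balance between the 2 triads was described by the share of SBEIIb among all SBEII transcripts. Taken from TPM, the share was 15.4, 14.5 and 31.9% in TAM112 and 43.1, 43.7 and 42.9% in TAM111 at 14 DAF. At 5 DAF it was 13.4, 13.9 and 0.936% in TAM112 and 8.61, 4.35 and 0.308% in TAM111. The TAM111 libraries at 14 DAF were thus close to each other (43.2 ± 0.4%, SD, n = 3) and above every other library, while the mean in TAM112 at 14 DAF was 20.6 ± 9.79%. In both cultivars all 14 DAF libraries were above all 5 DAF libraries, by a narrow gap in TAM112. This share is a ratio within a library and does not depend on the TMM factors. It was below 50 in each library, so SBEIIa had more transcripts than SBEIIb throughout.

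**Figure D3:**
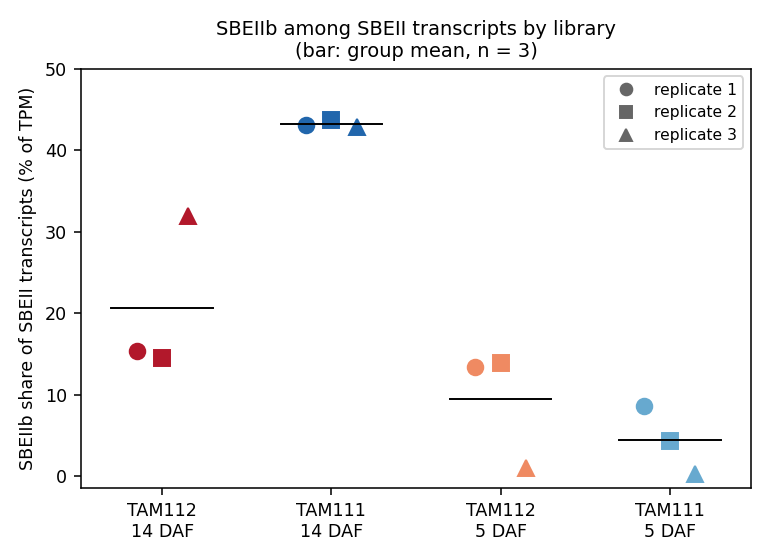
Share of the 3 SBEIIb genes in the TPM of all 6 SBEII genes, in percent, for each library, with bars for group means (n = 3). TAM111 at 14 DAF lies at 42.9 to 43.7%, and replicate 3 at 5 DAF lies under 1% in both cultivars (0.936% in TAM112 and 0.308% in TAM111).

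The ratio of SBEIIb to SBEIIa on 1 chromosome, in TPM, also differed between the genomes. In TAM111 at 14 DAF it was 0.923 to 0.955 for the A copies, 0.722 to 0.787 for the B copies and 0.526 to 0.592 for the D copies, so the 3 genomes did not overlap. In TAM112 at 14 DAF the ratio was 0.204 to 0.528 for the A copies, 0.173 to 0.499 for the B copies and 0.13 to 0.364 for the D copies, each below the range in TAM111. At 5 DAF no ratio was above 0.167 in TAM112 or above 0.121 in TAM111. By mean TPM in TAM111 at 14 DAF, the A copy of SBEIIb ranked at 3064 among all features, close to the A copy of SBEIIa at 2884, whereas in TAM112 at 14 DAF they ranked at 12366 and 4779.

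Within SBEIIa the 3 copies contributed nearly evenly in each library. Over the 12 libraries the A copy had 33.1 to 40% of the TPM of the triad, the B copy 30.3 to 37.5% and the D copy 26.9 to 30.7%. The A share was 34.2 ± 1.27% in TAM112 and 36.6 ± 0.183% in TAM111 at 14 DAF, and 39.1 ± 0.865% in TAM112 and 39.4 ± 0.630% in TAM111 at 5 DAF (SD, n = 3). It was lower in all 14 DAF libraries than in all 5 DAF libraries, and at 14 DAF lower in all TAM112 than in all TAM111 libraries. The B share had the opposite order in TAM112, at 33.9 to 37.5% at 14 DAF and 30.3 to 31.4% at 5 DAF, and the D share did not separate the stages.

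The shares of the SBEIIb copies varied more between libraries. They were A over B over D where the triad was highest, in TAM111 at 14 DAF, and differed most in replicate 3 at 5 DAF. The A copy had 38.2, 40.6 and 40.1% of the triad's TPM in TAM112 and 44.8, 45.2 and 45.5% in TAM111 at 14 DAF, and at 5 DAF it had 36.0, 38.7 and 20.8% in TAM112 and 33.5, 27.2 and 2.11% in TAM111. The D copy averaged 23.8 ± 0.257% in TAM112 and 21.4 ± 0.657% in TAM111 at 14 DAF, and 35.0 ± 6.11% in TAM112 and 39.6 ± 14.7% in TAM111 at 5 DAF (SD, n = 3). At 14 DAF the order of shares was A over B over D in every library, and the ranges of the A share did not overlap between the cultivars. In replicate 3 of TAM111 at 5 DAF the order was D over B over A, from 26, 19 and 1 counts, so the shares in that library rest on few counts. The homeologs are similar in sequence and the handling of reads with several matches is not stated, so part of a copy's count may belong to another copy.

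**Figure D4:**
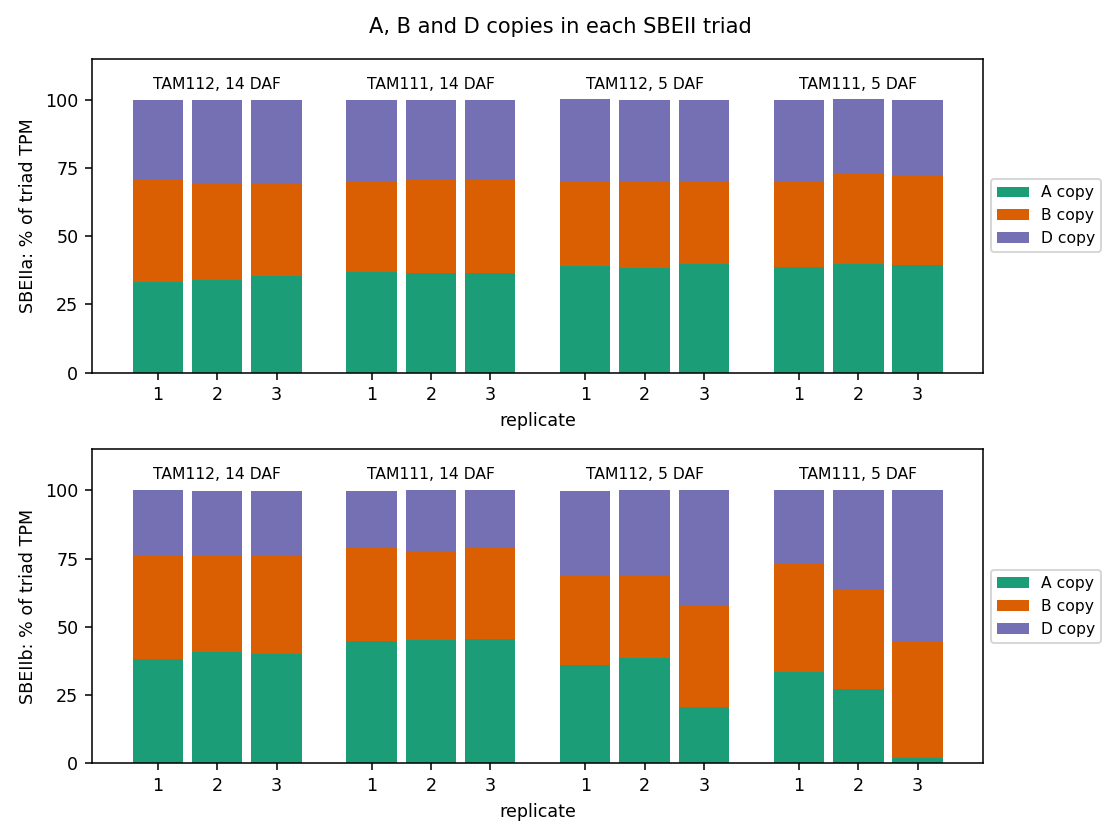
Share of the A, B and D copies in the TPM of the SBEIIa triad (upper panel) and of the SBEIIb triad (lower panel), in percent, in the 3 replicates of each group. The SBEIIa shares stay near the same values in all libraries, whereas the A share of SBEIIb is 20.8% in replicate 3 of TAM112 and 2.11% in replicate 3 of TAM111 at 5 DAF.

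Copies of 1 triad followed each other across libraries more closely than the triads did. Over the 12 libraries, which share the 4 groups and their depths, the Pearson correlation of log2 CPM was 0.976 to 0.989 between SBEIIa copies and 0.979 to 0.993 between SBEIIb copies. For the 9 pairs of a SBEIIa and a SBEIIb copy it was 0.079 to 0.38. After the group means were removed, the values were 0.986 to 0.992 within SBEIIa, 0.962 to 0.994 within SBEIIb and -0.0024 to 0.257 between the triads. At 14 DAF the triads had their highest library in common, replicate 3 of TAM112 with 375.0 CPM of SBEIIa and 171.7 CPM of SBEIIb, and replicate 2 of TAM111 with 629.7 CPM of SBEIIa and 477.7 CPM of SBEIIb, and in TAM111 the order of all 3 replicates was the same. At 5 DAF the replicates that were low for SBEIIb were not low for SBEIIa, since replicate 3 of TAM112 had 518.6 CPM and replicate 3 of TAM111 had 432.8 CPM for the SBEIIa triad, each the highest of its group.

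The features whose pattern was most like each triad were found from the correlation of log2 CPM with the mean log2 CPM of the triad over the 12 libraries. For SBEIIb they were TraesCS7A02G549200 (7A:723275296-723280279, r = 0.992), TraesCS7B02G472400 (7B:728665334-728684619, r = 0.99) and TraesCS2A02G168200 (2A:121141338-121145857, r = 0.986). The 7A and 7B features were low, with group means of 0.941 to 14.8 CPM and 0.385 to 9.34 CPM. Each had a lowest library of 0.0 CPM, so their correlations rest partly on values at the floor. TraesCS2A02G168200 was far more abundant than SBEIIb. It had a mean of 339.0 CPM in TAM112 and 1590.0 CPM in TAM111 at 14 DAF, and 420.0 CPM in TAM112 and 139.0 CPM in TAM111 at 5 DAF. For SBEIIa they were TraesCS3A02G167400 (3A:173943797-173947947, r = 0.949), TraesCS6B02G434400 (6B:702831262-702836611, r = 0.946) and TraesCS3B02G198800 (3B:226478992-226483097, r = 0.946), the first and the last with a mean between 14.8 and 30.6 CPM in every group. TraesCS6B02G434400 had group means of 5.41 to 10.6 CPM. None of the features listed here has a name in the table.

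Other genes of starch synthesis were counted as a list of 27 identifiers in 9 triads outside SBEII, of which 26 were tested. Their identity was not checked against an annotation, so they are given only as a group. The list was chosen with earlier results of these data known. At 14 DAF 21 of the 26 were lower in TAM112 than in TAM111 and 0 were higher among the DEGs, with a median log2 fold change of -2.19 (-4.17 to -1.41), beside 7.45% of all features lower and a median of -0.01. For 14 DAF over 5 DAF, 17 rose and 0 fell in TAM111 (median 2.09), beside 13.4% of all features higher. In TAM112 3 fell and 0 rose (median -0.60), beside 9.27% of all features lower, so this count was near that of all features. For TAM112 over TAM111 at 5 DAF all 26 log2 fold changes were above 0 (median 0.60). At 5 DAF 0 of the 26 were DEGs by the edgeR test, 5 had an unadjusted p under 0.05, and DESeq2 called 1, beside 3.39%, 26.8% and 5.77% of all features. The interaction was below 0 for all 26 (median -2.87), with 0 past the threshold by edgeR, 26 with an unadjusted p under 0.05 and 21 called by DESeq2, beside 0.309%, 23.3% and 4.92% of all features. The list summed to 593.1, 627.6 and 2093 CPM in TAM112 and 5653, 7742 and 4435 CPM in TAM111 at 14 DAF, with replicate 3 of TAM112 the highest of its group as for the SBEII genes. At 5 DAF it summed to 2897, 2799 and 2287 CPM in TAM112 and 2118, 1333 and 2239 CPM in TAM111. Replicate 3 was thus the lowest of TAM112 for this sum, though by far less than for SBEIIb, and the highest of TAM111. A sum can rest on a few abundant genes, and single genes of the list were not described by library.

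**Figure D5:**
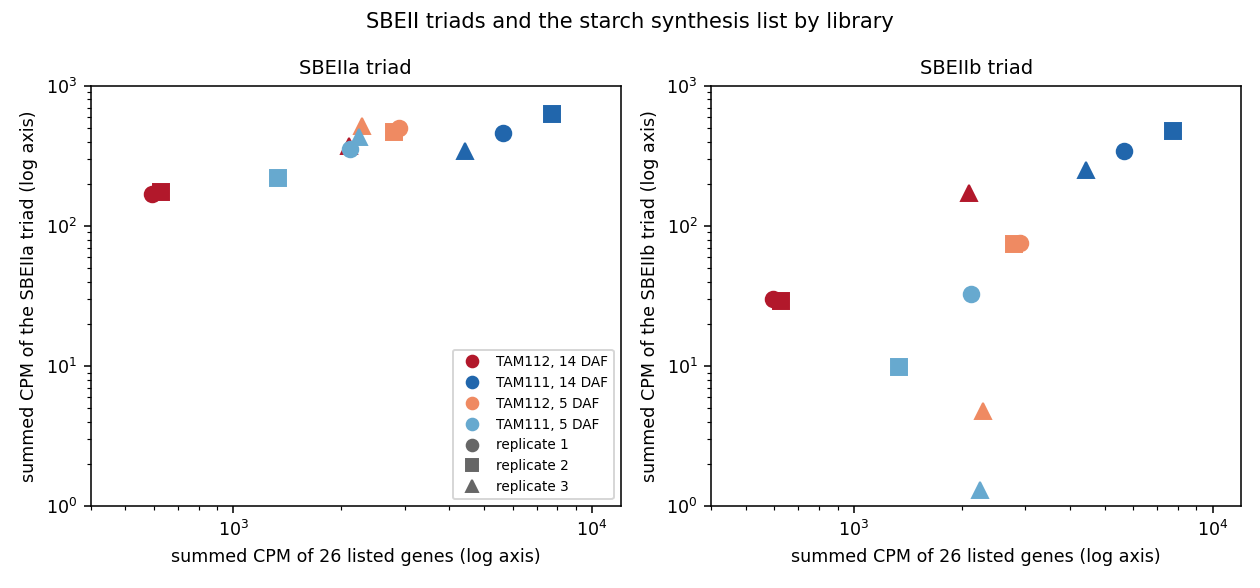
Summed CPM of the SBEIIa triad (left) and the SBEIIb triad (right) against the summed CPM of the 26 tested starch synthesis genes, on log axes, with 1 point per library. Replicate 3 at 5 DAF lies at 2287 CPM of the list in TAM112 and 2239 CPM in TAM111, near the other 5 DAF libraries, but at 4.78 and 1.30 CPM of SBEIIb.

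The genes around the SBEII genes were counted in the same fit. Among the 60 nearest tested features, 5 on each side of each SBEII gene, 13 were DEGs for stage in TAM111 (21.7%), 11 for stage in TAM112 (18.3%), 9 for cultivar at 14 DAF (15%) and 1 for cultivar at 5 DAF (1.67%). These shares were close to or below those of all features given above. Of the nearest tested features on either side of an SBEII gene, only TraesCS2A02G310100 was a DEG. Its start lies at -347898 bases from that of the A copy of SBEIIb on 2A, and untested features may lie between. It had a log2 fold change of 1.24 for 14 DAF over 5 DAF in TAM112 (edgeR adjusted p = 0.00683).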

How the data were processed

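Polyadenylated RNA of 12 grain samples was sequenced as paired reads from directional libraries. Trimming by the authors used Cutadapt 2.8, then Trimmomatic 0.39. They aligned with HISAT2 2.1.0 to the IWGSC RefSeq assembly v1.0, counted reads on annotation v1.1 with featureCounts of Subread 1.6.2 and deposited whole-number counts per gene, not normalized. How strand and multiply mapped reads were treated is not given in the sources used here, so counts of the near-identical homeologs are uncertain. The 12 libraries held 31916077 to 40464882 counts. Precision was lowest in replicate 3 of TAM111 at 5 DAF, where the SBEIIb copies had 1, 19 and 26 counts.

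The analysis used edgeR 4.0.16 in R 4.3.3. The default filterByExpr rule passed 65080 features, which held 99.8 to 99.9% of the counts. All 12 libraries entered 1 fit, with TMM factors and a coefficient for each group, and contrasts were tested by quasi-likelihood F tests. The thresholds and the factorial design are those of the study's methods, but fold changes were not shrunk and p-values had Benjamini-Hochberg adjustment without weights. The SE of a log2 fold change is its absolute value over the root of its F statistic. The fit was also run on simulated data as a check of the code, and no result given here rests on that run. TPM values use the table's gene lengths and all features. Libraries were assigned to groups from the sample labels. Replicates of a group differed beyond sampling noise in every pair (chi-square over its degrees of freedom 14.5 to 52.5), and nothing states whether same-group inflorescences came from separate plots. Alternatives were other scalings and filters, DESeq2 1.42.0, a test against the fold threshold (glmTreat), an adjusted p under 0.05, the replicate number as a block, each library left out and, chosen after the data were seen, replicate 3 of both cultivars at 5 DAF left out.

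Groups share replicate numbers. The deviations of same-numbered libraries from their group means correlated over 0.1 in all 3 pairs between TAM112 and TAM111 at 5 DAF (0.365, 0.34 and 0.528), so the numbers may pair those libraries, which rests on the values alone. The fit reported has no block, and the fit with the block changed no SBEII call at 5 DAF. In the other combinations of groups at least 1 pair was not over 0.1 (-0.283 to 0.107).

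The SBEII genes and the lists were chosen with earlier results of these data known. The names SBEIIa and SBEIIb came with the list of identifiers, since the count table gives no gene names and 0 of the 6 identifiers stand in the RefSeq gene table used here. Named features are the 6 genes, the 3 features most like each triad and a nearest tested neighbour if called. Sequences, promoter motifs and cell type markers were not analysed here, as no table used here ties them to these identifiers.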

Additional observations from a re-analysis of the deposited data

How the results depend on the processing

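The count of DEGs among the 6 genes was 0 under all alternatives for cultivar at 5 DAF, with or without the replicate block, and for the interaction. For stage in TAM111 the count of 2 was 1 with library sizes alone, 0 with the replicate block (the libraries share only a number there), 0 with glmTreat, 3 with DESeq2, 3 at an adjusted p under 0.05, 3 without a filter and 0 to 3 with 1 library left out. For stage in TAM112 the count of 0 was 2 at an adjusted p under 0.05, 1 with DESeq2 and 0 to 3 with 1 library left out, and for cultivar at 14 DAF it was 1, 1 and 0 to 3 in the same settings. For stage in TAM112 the SBEIIb log2 fold changes turned to -0.73 (A), -0.59 (B) and -1.24 (D) without replicate 3 of TAM112 at 14 DAF, and that of the D copy to -0.37 without replicate 3 of TAM112 at 5 DAF and to -0.37 without replicate 3 of both cultivars at 5 DAF. With 1 library left out they reached at most 1.13 (A), 1.22 (B) and 0.55 (D). The cause was not tested. Of 625 fold changes under the alternatives, 583 kept their direction and side of the threshold, 19 lost and 18 gained a call, and 5 turned. The 19 losses all fell on the B and D copies of SBEIIb for stage in TAM111. These were the only values called in the main fit, so no other value could lose a call. The SBEIIb share in TAM111 at 14 DAF was 42.7% in counts in place of TPM, and 5 homeolog shares moved by more than 1 SD in counts. Leaving out 1 of 3 libraries cannot move a group mean by 1 SD, so for the shares those settings are no check at this limit.

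With library sizes alone the median log2 fold change of all features at 14 DAF was 0.45 and 82.6% of the DEGs were higher in TAM112, against -0.01 and 48.5% with TMM. The share of DEGs higher at 14 DAF in TAM111 was then 41.8%, against 56.0%, and that of interactions above 0 was 87.2%, against 54.2%, and no SBEII gene changed direction. Over all features, DEGs for cultivar at 5 DAF numbered 2203, and 3757 with DESeq2, 3866 at an adjusted p under 0.05, 1125 with at least 10 counts in every library and 1276 with glmTreat. For cultivar at 14 DAF they numbered 9417, and 14455 at 0.05, 2279 with glmTreat and as few as 5104 with 1 library left out. For stage they numbered 15609 in TAM111, and 10184 with at least 10 counts and 6633 with glmTreat, and 13694 in TAM112, and 4568 with glmTreat and as few as 8979 with 1 library left out. For the interaction they numbered 201, and 3200 with DESeq2, 2986 at 0.05, 561 with at least 10 counts, 17 with glmTreat, 891 with library sizes alone, 413 without a filter, 105 with the replicate block, 28 to 963 with 1 library left out and 876 without replicate 3 of both cultivars at 5 DAF. The filter of at least 10 counts in every library left 5 of the 6 genes, since the SBEIIb A copy had 1 count in 1 library.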
